A study of Homo sapiens with 8 samples.

Results

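The 3 GADD45 genes (GADD45A, GADD45B, GADD45G), the 3 sestrin genes (SESN1, SESN2, SESN3) and DDIT4 were followed in LN229, an established human glioblastoma cell line. These 7 genes were selected by their symbols from the 26364 gene rows of the count table. They were chosen by gene family after earlier results on the same libraries were known, including their TMZ differences, so all values below are a description of these libraries and no test is used as support. Counts were high enough in 6 of them to enter the fit of 14201 genes, and only GADD45G did not pass the filter on low counts.

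Total RNA was sequenced from 2 stable clones that both carry the plasmid pcDNA3.1-survivin-eGFP and grow under G418 selection. The Surv-GFP clone (D6) expresses survivin fused to GFP with a functional nuclear export sequence and, without drug, holds the protein mainly in the cytoplasm. The SurvNESmut-GFP clone (L2) carries a mutated export sequence and holds the protein mainly in the nucleus. Cells of each clone were grown without drug or for 48 h with 50 µM temozolomide (TMZ), a drug that methylates DNA bases, which gives 4 groups of 2 libraries with the letters a and b. Each construct is represented by 1 clone, so the mutation and other differences between these clones cannot be told apart. The study describes independent biological replicates that were also run as technical duplicates, but not which of these the letters a and b stand for. The spread between letters, on which all errors rest, may therefore be technical. SDs use the 2 letters of a group. Standard errors (SE) come from the fit, where each gene has 1 spread shared by the 4 groups and drawn towards that of other genes. An SE is therefore not the spread of the compared groups alone.

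The libraries held 15826923 to 18861603 counts on genes. BIRC5, the gene of survivin itself, stood at 1113 to 1152 CPM (counts scaled to a common library size) in untreated Surv-GFP libraries. In untreated SurvNESmut-GFP libraries it stood at 407.1 to 414.4 CPM. With TMZ it was at 1938 to 2029 CPM in Surv-GFP and at 252.6 to 262.4 CPM in SurvNESmut-GFP. It thus rose in Surv-GFP and fell in SurvNESmut-GFP, and with TMZ was 7.7-fold lower in SurvNESmut-GFP. RNA of the plasmid and of the chromosomal gene cannot be told apart in these counts. Of 8 glioma markers VIM, nestin, CD44, EGFR, SOX2, OLIG2 and S100B were counted in all 8 libraries. GFAP, the astrocyte filament gene, was at 0 to 0.921 CPM. Levels differed between libraries for S100B (14.3 to 798 CPM), OLIG2 (5.55 to 35.2 CPM) and SOX2 (19.4 to 92.6 CPM). VIM (2350 to 3780 CPM), nestin, CD44 and EGFR varied less. Markers of leukocytes, endothelium and epithelium stayed at or under 0.389 CPM, and of the neuronal markers SYN1 was at 1.93 to 3.72 and RBFOX3 at or under 0.0542 CPM.

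GADD45 proteins are small stress-induced nuclear proteins that bind PCNA, p21 and the mitotic kinase CDK1, activate the kinase MAP3K4 upstream of p38 and JNK, and take part in DNA repair and demethylation. Sestrins restrain mTORC1, the growth kinase complex of the lysosome, through GATOR2 and AMPK, and SESN2 is a leucine sensor. DDIT4 (REDD1) restrains mTORC1 by another route, the TSC complex. As background, GADD45A, SESN1, SESN2 and DDIT4 are known targets of p53, GADD45A, SESN2 and DDIT4 also of the stress factor ATF4, SESN3 of FOXO factors and DDIT4 of the hypoxia factor HIF1A.

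The stretch before the start site is shown for the 5 members that carry the contrast between rising and falling genes and for which the reference held an entry. RefSeq windows (GRCh38.p14) of 250 bases before the start were found for 6 of 7 members, and GADD45A had no entry. Each sequence runs 5′ to 3′ on the gene's strand and ends before the exon that GENCODE v29 annotates for the gene, and capitals mark every match, on either strand, to TATAAA of the core promoter, CCAAT of the NF-Y site, ACGTG of the hypoxia response element, TGATGNAA of the C/EBP and ATF4 composite site, TGTTTAC of the FOXO site or the p53 decamer consensus. CACGTG and GGGCGG were also searched, CACGTG contains ACGTG, and GGGCGG is left in lower case.
GADD45B: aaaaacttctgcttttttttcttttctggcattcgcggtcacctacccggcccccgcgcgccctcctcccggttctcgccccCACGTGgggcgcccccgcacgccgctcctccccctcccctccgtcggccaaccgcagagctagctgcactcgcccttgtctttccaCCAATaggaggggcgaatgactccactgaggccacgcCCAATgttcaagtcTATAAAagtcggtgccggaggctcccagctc
SESN1: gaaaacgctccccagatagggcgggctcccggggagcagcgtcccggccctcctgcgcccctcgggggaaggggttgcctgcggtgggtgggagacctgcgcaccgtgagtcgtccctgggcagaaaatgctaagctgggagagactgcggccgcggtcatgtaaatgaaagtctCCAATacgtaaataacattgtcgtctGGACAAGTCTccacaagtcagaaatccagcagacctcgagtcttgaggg
SESN2: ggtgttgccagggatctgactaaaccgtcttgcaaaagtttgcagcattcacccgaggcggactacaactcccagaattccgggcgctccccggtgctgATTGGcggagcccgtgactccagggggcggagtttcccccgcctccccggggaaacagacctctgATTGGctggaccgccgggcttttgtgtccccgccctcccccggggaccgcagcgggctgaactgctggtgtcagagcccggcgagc
SESN3: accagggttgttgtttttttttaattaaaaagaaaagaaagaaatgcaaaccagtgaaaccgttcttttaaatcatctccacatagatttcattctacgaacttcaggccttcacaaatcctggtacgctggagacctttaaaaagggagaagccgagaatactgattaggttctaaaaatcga
DDIT4: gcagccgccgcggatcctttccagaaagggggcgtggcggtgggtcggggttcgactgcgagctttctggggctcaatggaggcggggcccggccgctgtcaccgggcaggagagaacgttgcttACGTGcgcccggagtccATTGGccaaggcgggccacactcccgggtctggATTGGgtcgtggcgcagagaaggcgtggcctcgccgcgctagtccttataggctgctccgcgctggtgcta

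The window of GADD45B (chr19:2475877-2476126, plus strand) held TATAAA 31 bases before the start, CCAAT at 82 and 45 bases and CACGTG at 168 bases. TATAAA is present in 10.7%, CCAAT in 32% and CACGTG in 6.34% of all 35116 windows of this length. For SESN1 the window of the start nearest the gene's end is printed (chr6:109008989-109009238, minus strand), since it alone of its 3 windows held the p53 decamer consensus, at 49 bases, which occurs in 5.57% of all windows. It lies in an intron of longer SESN1 transcripts.

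SESN2 (chr1:28259268-28259517, plus strand) held CCAAT on the reverse strand at 151 and 86 bases and GGGCGG at 127 and 57 bases, the latter motif being present in 42.6% of windows. DDIT4 (chr10:72273674-72273919, plus strand) held CCAAT on the reverse strand at 108 and 75 bases and ACGTG, the core of the hypoxia response element, at 125 bases, which is found in 18.5% of windows. The window of SESN3 (chr11:95232542-95232725, minus strand) held none of the 8 motifs and had 42.8% G and C against a median of 58% over all windows, while the windows of the other 5 members with an entry had 60.4% to 74.4%, all over the full 250 bases. TGATGNAA, the core of the site for C/EBP and ATF4 dimers, was found in the window of GADD45G only among these members and in 3.14% of all windows, and TGTTTAC, the FOXO core, in none of the members and in 2.98%. Such matches describe letters and not binding.

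GADD45A, the family member classically induced by DNA damage, had the largest difference with TMZ among the 7 genes in Surv-GFP. In Surv-GFP it was counted at 36.26 and 40.18 CPM untreated and at 511.1 and 565.5 CPM after TMZ. In SurvNESmut-GFP it was at 57.42 and 61.9 CPM untreated and at 165.5 and 179.3 CPM after TMZ. No group overlapped another, and the order from low to high was Surv-GFP untreated, SurvNESmut-GFP untreated, SurvNESmut-GFP with TMZ and Surv-GFP with TMZ. The level was thus 14.1-fold higher with TMZ in Surv-GFP (log2 difference 3.82, SE 0.0719) and 2.89-fold higher in SurvNESmut-GFP (1.53, SE 0.0683). The clone that started lower ended 3.12-fold above the other. In bulk RNA fewer cells expressing a gene and less RNA per cell cannot be told apart.

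GADD45B, better known for induction by cytokines and growth signals than by DNA damage, followed another course. Surv-GFP libraries held 6.882 and 6.071 CPM untreated and 10.75 and 13.78 CPM with TMZ, and SurvNESmut-GFP libraries held 28.03 and 29.61 CPM untreated and 26.24 and 26.79 CPM with TMZ. All SurvNESmut-GFP libraries therefore lay above all Surv-GFP libraries. With TMZ it rose 1.89-fold in Surv-GFP (log2 difference 0.92, SE 0.133), while in SurvNESmut-GFP the log2 difference of -0.12 (SE 0.0946) was not past the threshold. Without TMZ it was 4.44-fold higher in SurvNESmut-GFP (log2 2.15, SE 0.117), the largest clone difference upwards among the members.

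GADD45G had 2 counts in each of the untreated SurvNESmut-GFP libraries and 0 in the other 6, where a count of 0 allows up to 0.16 to 0.189 CPM. No fold is given because both values lie under this limit of 3 counts. GADD45A thus supplied 84% and 86.9% of the GADD45 counts in untreated Surv-GFP and 97.9% and 97.6% after TMZ. In SurvNESmut-GFP its part was 67.1% and 67.6% untreated and 86.3% and 87% after TMZ.

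**Figure D1:**
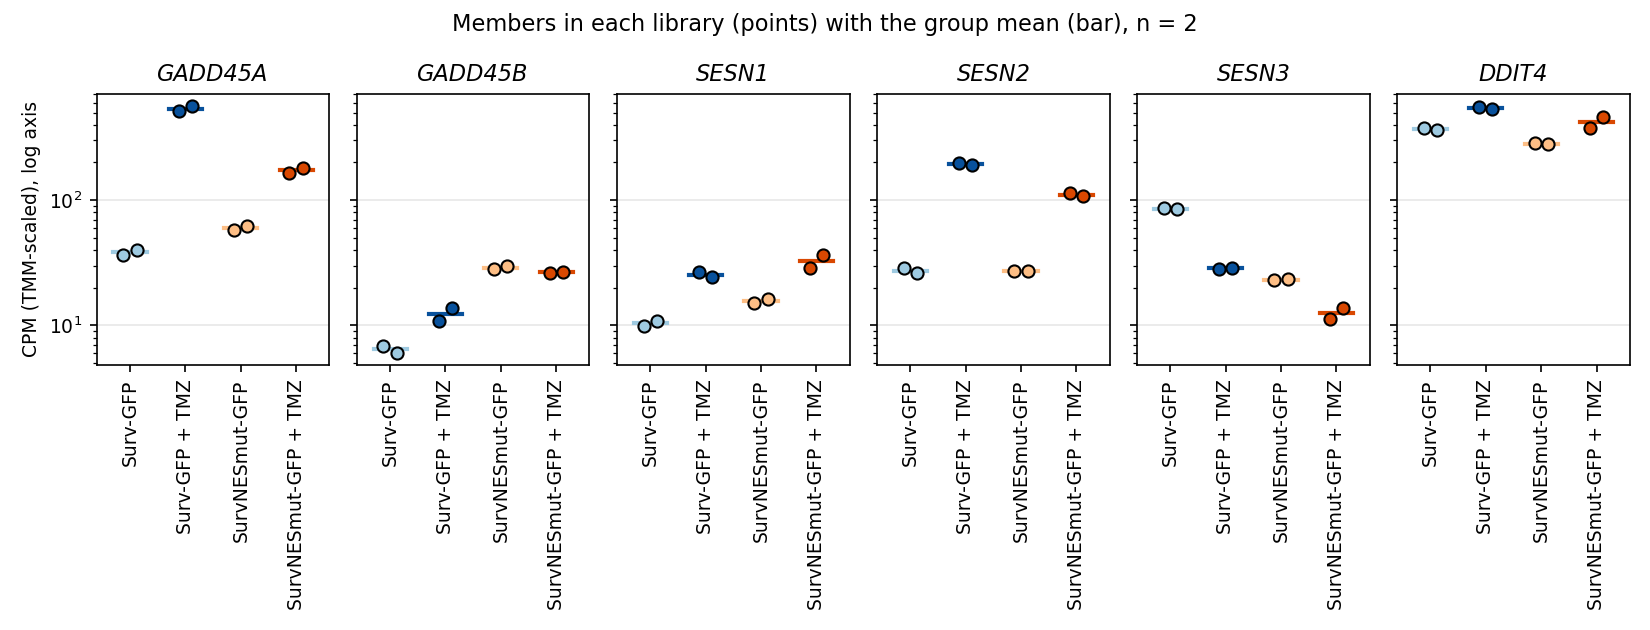
CPM of the 6 tested members in each library, with a log axis shared by all panels. Points are libraries and bars the mean of 2 libraries. GADD45A runs from 36.26 to 565.5 CPM, and SESN3 is the only panel in which both TMZ groups lie below their untreated groups.

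SESN2, a leucine sensor, was the sestrin with the largest rise. Untreated libraries of both clones held much the same level, 28.56 and 26.16 CPM in Surv-GFP and 27 and 27.28 CPM in SurvNESmut-GFP, and these groups overlapped. With TMZ it reached 196.5 and 190.5 CPM in Surv-GFP and 113.5 and 108.1 CPM in SurvNESmut-GFP. This was 7.07-fold (log2 2.82, SE 0.0583) and 4.08-fold (log2 2.03, SE 0.0602) above untreated. The clone difference untreated was -0.01 on the log2 scale (SE 0.0693, SurvNESmut-GFP minus Surv-GFP) and 0.05 without Surv-GFP untreated a, whereas with TMZ it was -0.80 (SE 0.0503).

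SESN1, the sestrin first described as a p53 target, rose in both clones. It was at 9.863 and 10.87 CPM in untreated Surv-GFP and at 26.68 and 24.16 CPM with TMZ. In SurvNESmut-GFP it was at 14.97 and 16.11 CPM untreated and at 28.87 and 36.24 CPM with TMZ. The groups kept apart, although the last had the widest spread. The rise was 2.45-fold in Surv-GFP (log2 1.29, SE 0.118) and 2.09-fold in SurvNESmut-GFP (log2 1.06, SE 0.108). With TMZ it was higher in SurvNESmut-GFP by 0.35 on the log2 scale (SE 0.101), but this difference was 0.28 and no longer past the threshold without Surv-GFP TMZ b, and 0.15 without SurvNESmut-GFP TMZ b.

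SESN3, the FOXO-linked sestrin, went down. Its level was 86.28 and 85.05 CPM in untreated Surv-GFP and 28.23 and 28.93 CPM after TMZ. In SurvNESmut-GFP 23.15 and 23.34 CPM were found untreated and 11.16 and 13.87 CPM after TMZ. The untreated SurvNESmut-GFP libraries lay below even the TMZ-exposed Surv-GFP libraries. With TMZ the log2 difference of SESN3 was -1.58 (SE 0.0705) in Surv-GFP and -0.90 (SE 0.0946) in SurvNESmut-GFP, and untreated it was 3.69-fold lower in SurvNESmut-GFP than in Surv-GFP (log2 -1.88, SE 0.0725).

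The make-up of the sestrin counts turned over with TMZ. SESN3 supplied 69.2% and 69.7% of all sestrin counts in untreated Surv-GFP and 11.2% and 11.9% after TMZ, while SESN2 went from 22.9% and 21.4% to 78.2% in each library. In SurvNESmut-GFP SESN2 already held 41.5% and 40.9% untreated and 73.9% and 68.3% after TMZ. Summed sestrin CPM were 124.7 and 122.1 in untreated Surv-GFP, 251.4 and 243.6 with TMZ, 65.12 and 66.73 in untreated SurvNESmut-GFP and 153.5 and 158.2 with TMZ. The sum was therefore higher with TMZ in each clone although SESN3 fell. SESN3 has the longest exons of the 3, so its part is smaller per length. Divided by exon length, SESN3 made up 43.9% and 44.6% in untreated Surv-GFP, next to 43.1% and 40.6% for SESN2, and 4.15% and 4.41% with TMZ.

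**Figure D2:**
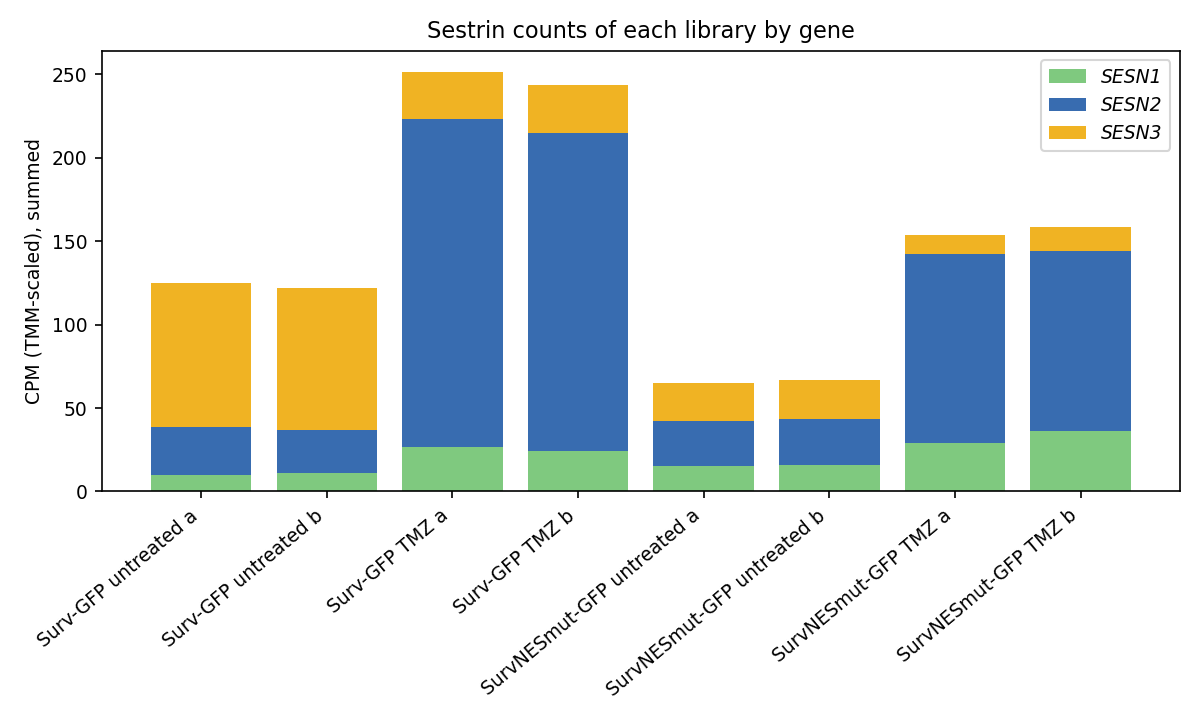
Stacked bars give the CPM of SESN1, SESN2 and SESN3 in each of the 8 libraries, starting at 0. SESN3 is the largest block only in the untreated Surv-GFP libraries (69.2% and 69.7% of the counts), and SESN2 is the largest in all TMZ libraries.

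DDIT4, the mTORC1 inhibitor acting through TSC, had the smallest difference with TMZ of the tested members in Surv-GFP. It was at 376.3 and 363.3 CPM in untreated Surv-GFP and at 558.4 and 536.7 CPM with TMZ. In SurvNESmut-GFP it was at 284.8 and 280.4 CPM untreated and at 375.9 and 462.2 CPM with TMZ. Untreated Surv-GFP and TMZ-exposed SurvNESmut-GFP libraries overlapped, and the latter pair was the widest of the 4. The rise was 1.48-fold in each clone (log2 0.57, SE 0.07 in Surv-GFP and log2 0.57, SE 0.0708 in SurvNESmut-GFP). DDIT4 was lower in SurvNESmut-GFP by about the same step without TMZ (log2 -0.39, SE 0.0707) and with it (log2 -0.39, SE 0.0699).

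Its paralog DDIT4L (REDD2), not among the 7 genes, had 8 and 13 counts in untreated Surv-GFP and 5 and 8 with TMZ, and 0 in all 4 SurvNESmut-GFP libraries. Against a limit of 3 counts over a group the observed Surv-GFP level was 6.98-fold higher untreated and 3.96-fold higher with TMZ. Counting error of the Surv-GFP counts is not included, so these folds are not strict lower bounds. DDIT4L did not pass the filter on low counts.

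Per kilobase of exon (GENCODE v29, all coding transcripts merged, since the sources used here name no annotation for the counting) DDIT4 and GADD45A led in every group. DDIT4 was at 212 ± 5.25 CPM per kb in untreated Surv-GFP against 25.5 ± 1.86 for GADD45A (SD, n = 2). With TMZ GADD45A reached 360 ± 25.7 and passed DDIT4 at 313 ± 8.81 in Surv-GFP, but not in SurvNESmut-GFP, where they were at 115 ± 6.52 and 240 ± 34.9 CPM per kb. SESN2 came next in both TMZ groups with 56 ± 1.22 and 32.1 ± 1.09 CPM per kb. In untreated Surv-GFP SESN3 was at 8.38 ± 0.0846 and SESN2 at 7.92 ± 0.492 CPM per kb. This gap was within the SD of SESN2 but not within that of SESN3. The order was the same with the longest transcript in place of merged exons. Exons of SESN1, SESN3 and DDIT4 each overlap an antisense gene on the opposite strand that has no row in the count table, and the sources used here do not say whether strand was used in the counting, so antisense reads cannot be told apart.

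By edgeR's quasi-likelihood test with p adjusted over the 14201 genes and a threshold of 0.05, 5 of the 6 tested members were higher and 1 was lower with TMZ in Surv-GFP, where 58.9% of all tested genes were past the threshold. In SurvNESmut-GFP 4 were higher, 1 lower and 1 not past it, against 37.8% of all genes. The median log2 difference of the 6 was 1.11 and 0.816, and of all tested genes 0 and 0.00346. Nothing is read from these counts, because the genes were chosen with these differences known. GADD45A stood at the 99.6th and SESN2 at the 99.1st percentile of all log2 differences in Surv-GFP, DDIT4 at the 86.83rd and SESN3 at the 1.887th. In SurvNESmut-GFP these percentiles were 98.63 for GADD45A, 99.34 for SESN2, 91.83 for DDIT4 and 3.014 for SESN3.

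The difference between clones in the TMZ effect, taken as SurvNESmut-GFP minus Surv-GFP on the log2 scale, was past the threshold for 4 of 6 members, with 3 negative and 1 positive, against 36.8% of all tested genes. It was -2.29 (SE 0.0977) for GADD45A, -1.03 (SE 0.164) for GADD45B and -0.79 (SE 0.0857) for SESN2. For SESN3, which fell less in SurvNESmut-GFP, it was 0.69 (SE 0.12). The 4 members thus had effects closer to 0 in SurvNESmut-GFP. SESN1 at -0.23 (SE 0.162) and DDIT4 at 0.0016 (SE 0.0991) were not past the threshold, which does not show that their effects were equal. For SESN1 the difference was -0.40 and past the threshold without SurvNESmut-GFP TMZ b.

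Between the untreated clones 3 members were higher and 2 lower in SurvNESmut-GFP, with SESN2 not past the threshold, against 64.1% of all genes. GADD45A (log2 0.64, SE 0.0754), SESN1 (log2 0.58, SE 0.127) and GADD45B were higher and SESN3 and DDIT4 lower. With TMZ 2 were higher and 4 lower, against 69.2% of all genes. GADD45A changed sides and was then lower in SurvNESmut-GFP by 1.64 on the log2 scale (value -1.64, SE 0.0628), as was SESN2, while GADD45B (log2 1.12, SE 0.107) and SESN1 were higher and SESN3 (log2 -1.20, SE 0.0919) and DDIT4 lower. The untreated and the TMZ comparisons share no library, but each of them shares its libraries with the TMZ effects above.

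**Figure D3:**
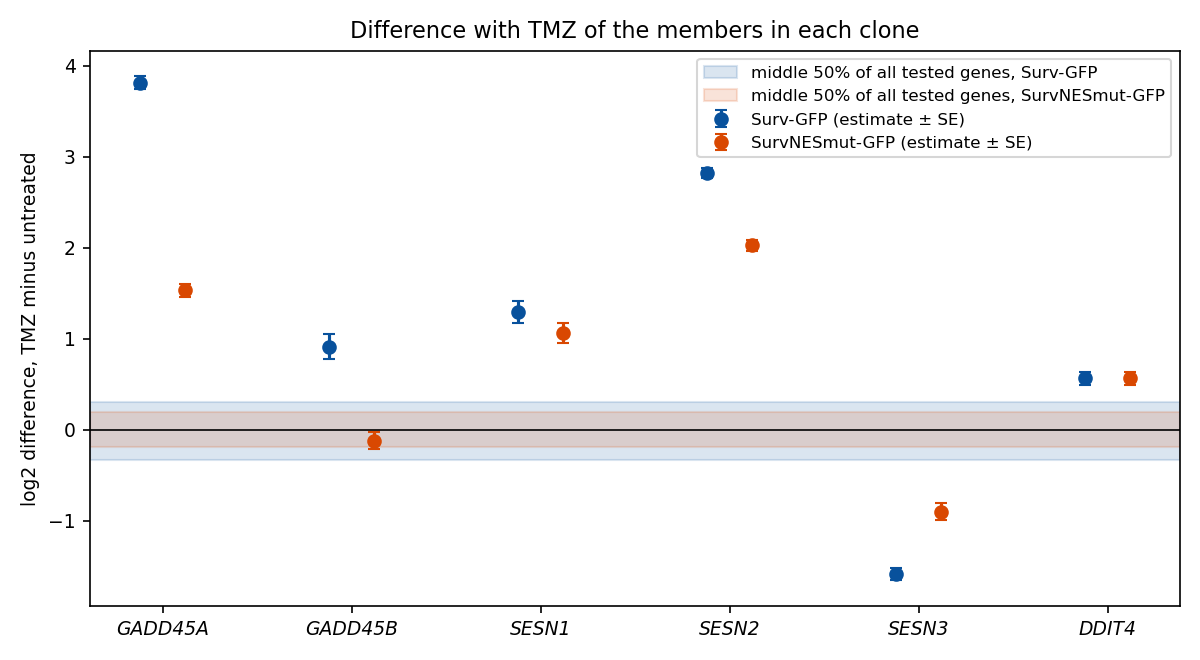
The log2 difference between TMZ-exposed and untreated libraries for the 6 tested members in each clone, with bars of 1 SE and bands for the middle 50% of all 14201 tested genes. GADD45A is 3.82 in Surv-GFP and 1.53 in SurvNESmut-GFP, the DDIT4 points coincide, and SESN3 alone is below the bands in both clones.

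Of all 14201 tested genes 30.1% were higher and 28.9% lower with TMZ in Surv-GFP, and 18.6% were higher and 19.1% lower in SurvNESmut-GFP. Genes that act with the GADD45 proteins included some that rose and some that fell. Of 14 tested partners and effectors, 4 were higher and 6 lower with TMZ in Surv-GFP (median log2 difference -0.0877). In SurvNESmut-GFP 2 were higher and 5 lower (median -0.0583). The 4 of 14 higher in Surv-GFP were near the 30.1% of all genes, while the 6 of 14 lower lay above the 28.9%. The 5 of 14 lower in SurvNESmut-GFP lay above the 19.1% of all genes. CDKN1A, the p21 gene, rose by 3.52 (SE 0.0727) and 1.96 (SE 0.0688) in the respective clones. MAP2K6, an activator of p38, was at -2.90 (SE 0.144) in Surv-GFP and at -0.39 (SE 0.157), not past the threshold, in SurvNESmut-GFP. Its untreated mean was 17.58 CPM in Surv-GFP and lower, at 5.659 CPM, in SurvNESmut-GFP. The binding partners CCNB1 (log2 -1.79 and -1.52) and CDK1 (log2 -0.79 and -0.45) fell in both clones, and MAP3K4, the kinase that GADD45 proteins activate, was lower by little (log2 -0.15 and -0.39). These last 3 were named after their values were seen.

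The sestrin and amino acid sensing machinery, with GATOR and Rag subunits, the LAMTOR scaffold and AMPK, had medians near 0. Of 34 tested genes 10 were higher and 4 lower in Surv-GFP (median 0.0113), and 8 were higher and 11 lower in SurvNESmut-GFP (median 0.00678). All tested genes stood at 30.1% higher and 28.9% lower in Surv-GFP and at 18.6% and 19.1% in SurvNESmut-GFP. SQSTM1, the p62 autophagy receptor that binds sestrins, was at 1.67 (SE 0.0459) in Surv-GFP and at 0.01 (SE 0.045) in SurvNESmut-GFP, where it was not past the threshold. PRKAB2, an AMPK subunit, rose by 1.62 (SE 0.0528) and 0.71 (SE 0.0571). These counts depended on single libraries. The 4 lower in Surv-GFP were 1 without Surv-GFP untreated a or Surv-GFP TMZ a, and in SurvNESmut-GFP the 8 higher were 3 and the 11 lower 6 without SurvNESmut-GFP TMZ a, 4 and 4 without SurvNESmut-GFP untreated b, and the 8 higher were 3 without SurvNESmut-GFP untreated a.

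Of 19 tested genes around DDIT4, TSC and mTORC1, 9 were higher and 5 lower in Surv-GFP (median 0.0838) and 5 were higher and 5 lower in SurvNESmut-GFP (median 0.0402). The 5 of 19 lower in Surv-GFP were near the 28.9% of all tested genes, while the 9 of 19 higher lay above the 30.1%. The shares of all genes in SurvNESmut-GFP were 18.6% higher and 19.1% lower. DEPTOR, an mTOR inhibitor, fell in Surv-GFP (log2 -1.74, SE 0.198) and was at -0.24 (SE 0.324) in SurvNESmut-GFP. Its mean was 10.38 CPM in untreated Surv-GFP and 3.128 CPM with TMZ, and already 1.866 CPM in untreated SurvNESmut-GFP. GRB10, an adaptor that dampens insulin signaling, rose in Surv-GFP (log2 1.19, SE 0.0563) and was at -0.02 (SE 0.0567) in SurvNESmut-GFP. TXNIP, a DDIT4 partner named after its value was seen, rose more in SurvNESmut-GFP (log2 1.15, SE 0.0733) than in Surv-GFP (log2 0.46, SE 0.0693). The 5 lower in Surv-GFP were 3 without Surv-GFP untreated b or Surv-GFP TMZ a, and in SurvNESmut-GFP the 5 higher were 3 without SurvNESmut-GFP untreated b or SurvNESmut-GFP TMZ a and the 5 lower were 3 without SurvNESmut-GFP untreated b.

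Other genes known to answer to the same factors were set beside the members. Of 25 tested p53 targets 22 were higher and 2 lower in Surv-GFP (median 1.48) and 19 were higher and 1 lower in SurvNESmut-GFP (median 0.783), led by the stress cytokine gene GDF15 at 6.53 (SE 0.121) and 2.67 (SE 0.099). Of 24 tested ATF4 targets 23 were higher and 1 not past the threshold in Surv-GFP (median 1.87), 22 and 2 in SurvNESmut-GFP (median 1.23), and CHAC1, a glutathione-degrading enzyme, had the largest value in Surv-GFP with 4.25 (SE 0.118), next to 3.57 (SE 0.102) in SurvNESmut-GFP. The pseudokinase gene TRIB3 came next in Surv-GFP with 4.19 (SE 0.0584) and was at 1.87 (SE 0.0558) in SurvNESmut-GFP. Of all tested genes 30.1% were higher in Surv-GFP and 18.6% in SurvNESmut-GFP, with medians of 0 and 0.00346. The difference of TMZ effects, SurvNESmut-GFP minus Surv-GFP, was negative and past the threshold for 17 of 25 p53 targets and 19 of 24 ATF4 targets and positive for 2 of each (1 ATF4 target without Surv-GFP untreated b), with medians of -0.566 and -0.511. Of all tested genes 20.2% were negative and 16.6% positive in this comparison, with a median of -0.00103. Between the untreated clones 15 p53 targets were higher and 7 lower in SurvNESmut-GFP (median 0.327). Of the ATF4 targets 14 were higher and 6 lower (median 0.348), against 34.7% higher and 29.4% lower of all tested genes. With TMZ 15 p53 targets were lower and 4 higher in SurvNESmut-GFP (median -0.317). Of the ATF4 targets 14 were lower and 8 higher (median -0.226), against 34.7% lower and 34.5% higher of all tested genes. A difference of TMZ effects takes in the untreated levels as well as those with TMZ.

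FOXO targets had negative medians. Of 17 tested, 4 were higher and 11 lower in Surv-GFP (median -0.519) and 2 were higher (1 without SurvNESmut-GFP untreated a) and 12 lower in SurvNESmut-GFP (median -0.394). Of all tested genes 28.9% and 19.1% were lower in the respective clones, with medians of 0 and 0.00346. PIK3IP1, an inhibitor of PI3 kinase, was at -2.32 (SE 0.325) and -1.02 (SE 0.228), and PDK4, a pyruvate dehydrogenase kinase, at -2.19 (SE 0.162) and -1.46 (SE 0.154). The means of PIK3IP1 were low, at 3.194 CPM in untreated Surv-GFP and 0.6287 CPM with TMZ. SESN3 with -1.58 and -0.90 lay below the medians of this list, and SESN2 with 2.82 and 2.03 above those of the p53 and ATF4 lists. GADD45A with 3.82 and 1.53 was also above the p53 and ATF4 medians, while DDIT4 with 0.57 in each clone was below them. SESN1 with 1.295 was below the p53 median in Surv-GFP and with 1.064 above it in SurvNESmut-GFP.

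Hypoxia targets were found in both directions. Of 14 tested, 6 were higher and 6 lower in Surv-GFP (median 0.0758), and 4 were higher and 7 lower in SurvNESmut-GFP (median -0.335). All tested genes were split in a like way in Surv-GFP, with 30.1% higher and 28.9% lower, and stood at 18.6% and 19.1% in SurvNESmut-GFP. Between the untreated clones 12 were higher and 2 lower in SurvNESmut-GFP (median 0.854), against 34.7% higher and 29.4% lower and a median of 0.0336 for all genes, and the 2 lower were 1 without Surv-GFP untreated a, SurvNESmut-GFP untreated a or SurvNESmut-GFP untreated b. VEGFA, the angiogenic growth factor gene, rose by 3.48 (SE 0.0642) and 1.69 (SE 0.0572), and ANGPTL4, a lipase inhibitor gene, by 1.74 (SE 0.275) and 1.03 (SE 0.188). The means of ANGPTL4 were low, at 1.036 CPM in untreated Surv-GFP and 3.487 CPM with TMZ. DDIT4 was lower in untreated SurvNESmut-GFP, unlike these 12.

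**Figure D4:**
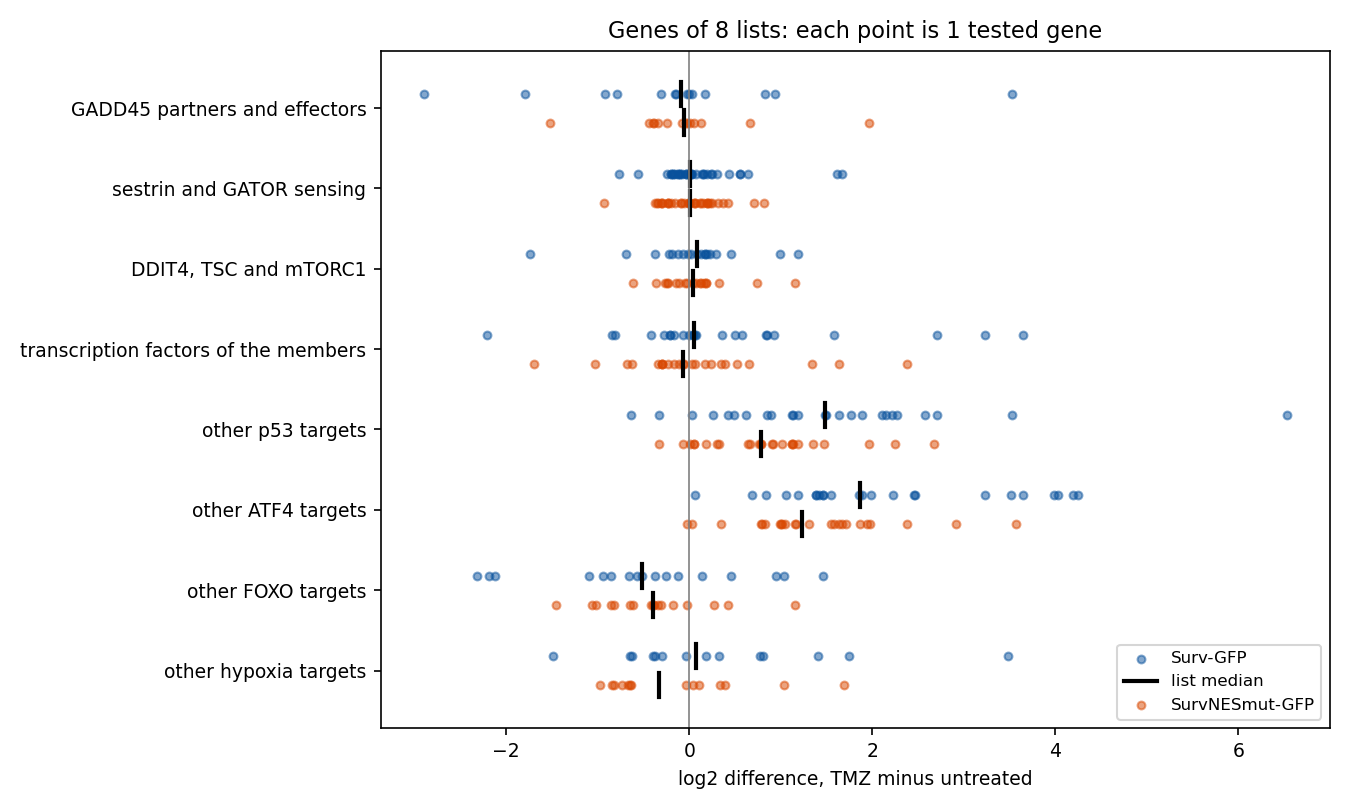
Each point is the log2 difference with TMZ of 1 tested gene, by list and clone, and black bars are list medians. The p53 list (medians 1.48 and 0.783) and the ATF4 list (1.87 and 1.23) lie to the right of 0, the FOXO list (-0.519 and -0.394) to the left.

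Of 24 transcription factors known to act on the members, 10 were higher and 7 lower with TMZ in Surv-GFP (median 0.0513) and 9 were higher and 8 lower in SurvNESmut-GFP (median -0.0643). The 7 of 24 lower in Surv-GFP were near the 28.9% of all tested genes, while the 10 of 24 higher lay above the 30.1%. In SurvNESmut-GFP 18.6% of all genes were higher and 19.1% lower, and both counts of the list lay above these shares. ATF3 rose by 3.65 (SE 0.0982) and 2.38 (SE 0.093) and DDIT3, which encodes CHOP, by 3.23 (SE 0.0694) and 1.64 (SE 0.0883). Several others were looked up after these values were seen. ATF4 itself rose by 0.85 (SE 0.0518) and 0.52 (SE 0.0517). HIF1A rose in Surv-GFP (log2 0.58, SE 0.0559) and fell in SurvNESmut-GFP (log2 -0.69, SE 0.0556). Of the FOXO genes, FOXO3 (log2 -0.28, SE 0.0614, and -0.17, SE 0.0549) and FOXO4 (log2 -0.84, SE 0.108, and -1.03, SE 0.114) fell in both clones, and FOXO1 fell in SurvNESmut-GFP (log2 -0.63, SE 0.118) and was at -0.21 (SE 0.0982), not past the threshold, in Surv-GFP. These are RNA levels and say nothing of protein activity. ATF3, DDIT3 and CEBPB stand in this list and in that of the ATF4 targets, CDKN1A in those of the GADD45 partners and the p53 targets, TXNIP in those of DDIT4 and FOXO, and BNIP3 in those of FOXO and hypoxia.

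The genes with the most similar course over the 4 groups were found by the root mean square difference of centred group means on the log2 CPM scale, a description over 4 group means with no test. KLHDC7B (0.108) and PKD1L1 (0.117) were nearest to GADD45A, and FAIM (0.0702) and MAL2 (0.082) to GADD45B. PIDD1 (0.0627) and SLC7A11 (0.0658) were nearest to SESN1, and LINC01164 (0.114) and CTH (0.14) to SESN2. SESN3 was followed most closely by LOC101928489 (0.0724), and DDIT4 by SNAPC5 (0.0286) and LINC00467 (0.0374). DDIT4 had 77 genes within 0.1 and GADD45A and SESN2 had 0. Among the members themselves GADD45A and SESN2 were the closest pair at 0.395, and GADD45A and SESN3 the most distant at 2.15.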

How the data were processed

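RNA of 8 LN229 libraries was sequenced on the Illumina platform by the authors. In the deposited table the values are raw counts, whole numbers for each gene symbol, that the authors did not normalize. The submitters' processing notes name STAR 2.5.0b, Cufflinks 2.2.1 and edgeR. The counting program, genome build, annotation and strand setting were not given in the sources used here. A further 5 deposited tables give the authors' own comparisons (log2 fold change, mean log2 CPM, F, p and FDR) and were not used. Libraries were assigned to groups from their sample labels.

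Reads in rows that name no gene (11.2% to 14.3% without a feature and 1.19% to 1.28% ambiguous) were left out. Counts were fitted in R 4.3.3 with edgeR 4.0.16 (TMM scaling, filter on low counts by group, quasi-likelihood F test in its earlier form) with 4 group means over all 8 libraries. The Benjamini-Hochberg adjusted p was taken over 14201 genes with a threshold of 0.05, and "rose", "fell", "higher" and "lower" for fitted differences refer to it. CPM use TMM-scaled library sizes. Log2 CPM for similarity used a prior count of 2. A count of 0 allows up to 3 counts, for counting error only. The fits were tested on simulated data.

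The members, the 8 gene lists and the rule for named genes (all members, BIRC5, the 2 list genes with the largest difference in Surv-GFP, and the 2 genes nearest to each member) were chosen with earlier results of these data known. A gene that this rule selects is not reported here. The lists were matched by symbol. Some genes were written under an older and a newer symbol. Letters were shared between groups, but the correlation of letter differences ran from -0.0671 to 0.0832 over the pairs of groups, so libraries were not paired. Replicate pairs differed by more than sampling noise (chi-square per degree of freedom 2.2 to 5.74, highest in SurvNESmut-GFP with TMZ). Alternatives were other scalings and filters, DESeq2 1.42.0, edgeR's current method, a robust prior, a replicate block, fits of the compared libraries alone, and fits without each library in turn.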

Additional observations from a re-analysis of the deposited data

Results flagged for a closer look

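The TMZ effect differed between the clones beyond the threshold, by the interaction term of the edgeR fit over all genes, for 4 members. The value, SurvNESmut-GFP minus Surv-GFP on the log2 scale, was -2.285 for GADD45A, -1.035 for GADD45B, -0.7923 for SESN2 and 0.6866 for SESN3. Each kept its sign and stayed past the threshold in all 16 alternatives, and the effects ranged from -2.365 to -2.18 for GADD45A, from -1.207 to -0.8195 for GADD45B, from -0.8611 to -0.7355 for SESN2 and from 0.5275 to 0.8367 for SESN3. Of these, GADD45B was not past the threshold for TMZ in SurvNESmut-GFP, where its untreated level was already above that of TMZ-exposed Surv-GFP libraries. The members were chosen with these differences known, and 36.8% of all tested genes were past the same threshold.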

How the results depend on the processing

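Counts of members past the threshold stayed within 1.5 times their value in all 84 recomputations. Of the members' log2 differences, 496 kept direction and side of the threshold, 5 turned sign, 1 passed and 2 lost the threshold. The DDIT4 difference of TMZ effects was -0.0005348 with the replicate block and ran from -0.1536 to 0.1412 when 1 library was left out, and the untreated clone difference of SESN2 ran from -0.07115 (without Surv-GFP untreated b) to 0.05441 (without Surv-GFP untreated a). The 3 changes of threshold concern SESN1 and the leaving out of SurvNESmut-GFP TMZ b or Surv-GFP TMZ b, as given above. The replicate block, with letters that do not pair the libraries, changed no other sign and no call of a member. Small list counts moved more. In SurvNESmut-GFP with TMZ, sestrin and GATOR genes went from 8 higher and 11 lower to 3 and 6 with DESeq2, and TSC and mTORC1 genes from 5 higher to 3. In the difference of TMZ effects, 10 of 14 tested hypoxia targets were lower and 0 higher (median -0.46). Of all tested genes 20.2% were lower and 16.6% higher there. The count of lower hypoxia targets shrank without Surv-GFP TMZ a or SurvNESmut-GFP untreated b. The cause was not tested. Leaving out a library leaves 1 in its group, which is then assumed to vary like the others. GADD45G is limited by depth, and 2 libraries a group limit the precision of all SDs.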
